A study of Sus scrofa domesticus with 4 samples.

Results

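The genes described here are 6 genes of the complement system (C1S, C3, CFB, C4A, CD46 and CD59) and SAA3, a serum amyloid A gene of the acute phase response. They were measured in porcine endometrium, the inner lining of the uterus, cultured with orexin A (OXA) or without it. The genes were chosen with earlier results of these arrays known, so their ratios are given as a description and without a p-value. Probes were assigned to them through the RefSeq transcript accession of each probe. This gave 18 of the 43603 probes of the array and 7 of the 3029 genes that could be named. All 18 probes were bright enough to be measured.

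OXA is a hypothalamic neuropeptide that promotes wakefulness and food intake. Endometrial slices of 3 mm and 100 mg came from 4 mature gilts, crosses of Large White and Polish Landrace pigs aged 7 to 8 months, killed on days 15 to 16 of gestation. After 2 h of preincubation in culture medium, slices received OXA for 24 h or were kept for the same time with no treatment. The dose is 10 nM in the labels of the samples and 10 µM in the design text of the series. RNA from treated and from untreated tissue, 1 of each, was hybridised together on each of 4 Agilent 2-colour arrays in the dyes Cy3 and Cy5, so that each array gives 1 ratio of OXA over control. Each group was cultured in duplicate, in 4 experiments. The labels do not tie the RNAs of an array to a gilt, so differences between arrays can come from the animal, the tissue piece or the handling, and p-values measure only the spread between these arrays.

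Complement is a cascade of plasma proteins that marks particles and damaged cells for removal. In its classical branch the protease C1s cleaves C4 and C2, and in its alternative branch factor B binds activated C3. Both branches make enzymes that cleave C3, the protein on which the branches meet. Cells protect themselves with inhibitors on their surface, among them CD46 and CD59. Serum amyloid A proteins rise in inflammation, and SAA3 encodes a member of this family. In the uterus complement proteins are made by the endometrium itself, and their control is part of how the tissue tolerates the conceptus, which in the pig begins to attach at about this stage.

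The dye that carried each RNA is described in 2 ways. The labels of the single samples, and the direction of the deposited value table, give Cy5 to the OXA RNA of arrays 1 and 3 and Cy3 to that of arrays 2 and 4. The text on labelling, the same for all samples, gives Cy5 to OXA on every array; under that reading OXA and dye cannot be told apart. All ratios below follow the labels of the single samples. Each gene is also given as Cy5 over Cy3 as scanned, that is by dye, which depends on no label. Both kinds of ratio were taken after background correction and normalization. More signal in a dye means more after these steps, unless raw signals are named. The share of spots well above background was 62.4% to 74.5% in Cy5 and 52.1% to 56.7% in Cy3 on arrays 2 to 4, and 31.8% in Cy3 on array 1, which the file headers place on another slide scanned 71 days after the other arrays. No spot was saturated. Of 11 endometrial markers listed, 6 were on the array (PGR, ESR1, SPP1, ACP5, RBP4 and STC1), and all 6 were well above background in all 8 readings, that is in both dyes of all 4 arrays. Across 26927 probes the ratios of OXA over control of array pairs correlated between -0.29 (arrays 3 and 4) and 0.42 (arrays 1 and 2).

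Of the 7 genes, C1S was higher with OXA on 4 of 4 arrays, and none was lower on 4 of 4. Among all 2407 named genes measured, 2.83% were higher and 5.86% lower on every array. C3, CFB and SAA3 instead gave more normalized signal in Cy5 than in Cy3 on 4 of 4 arrays, whichever RNA was in Cy5. Of the named genes, 13.2% did so. Read by the labels, these 3 genes were higher with OXA on arrays 1 and 3 and lower on arrays 2 and 4. The median of the 7 genes for OXA over control was 0.00 on the log2 scale, against -0.02 for all named genes and 0.02 for all probes. Their median for Cy5 over Cy3 was 0.28, against 0.03 for all named genes. No probe on the whole array passed an adjusted p of 0.05 in limma's moderated test (0 of 26927, 0%); 500 probes, 1.86%, had an unadjusted p under 0.05.

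**Figure D1:**
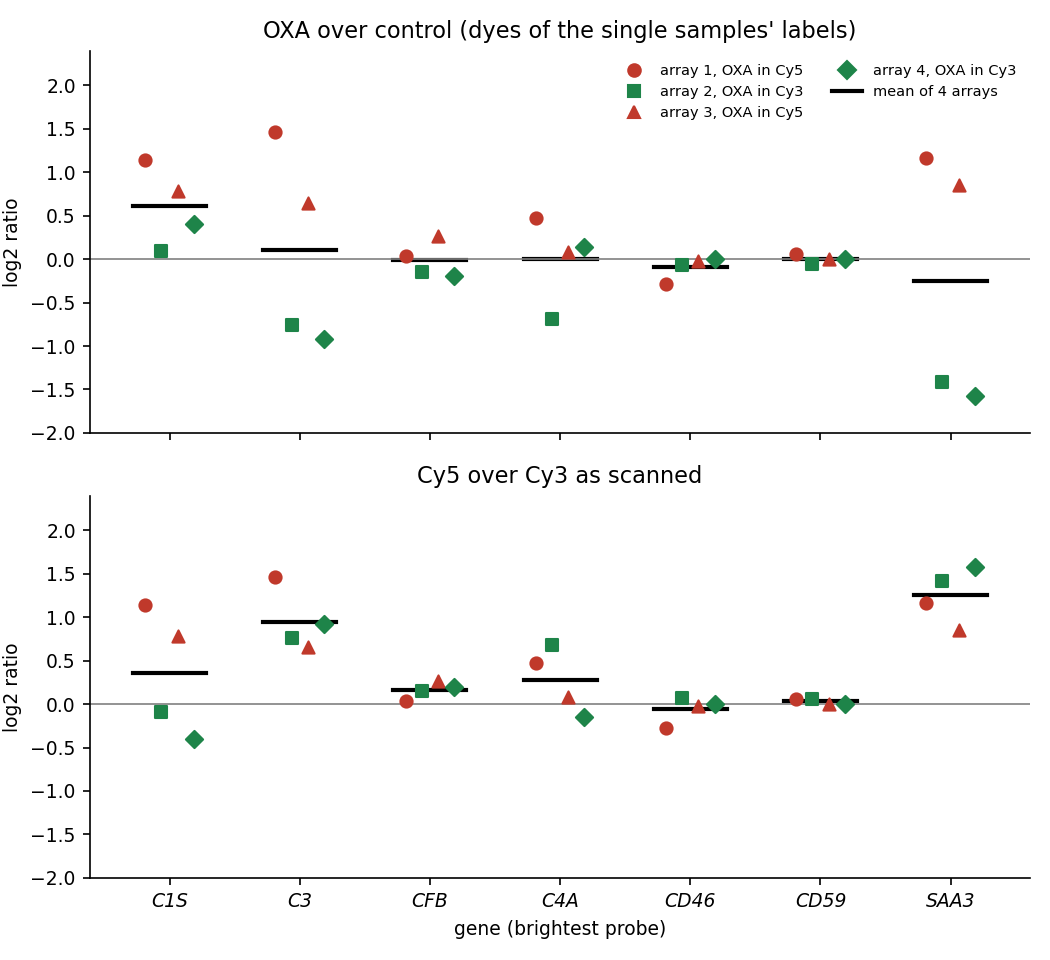
Normalized log2 ratio of the brightest probe of each of the 7 genes on the 4 arrays. The top panel gives OXA over control under the labels of the single samples, and the bottom panel Cy5 over Cy3 as scanned. Colour gives the dye of the OXA RNA, and the bar is the mean of 4 arrays. C1S lies above 0 on all 4 arrays in the top panel, while C3 and SAA3 split by dye there and lie above 0 on all 4 arrays in the bottom panel.

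C1S encodes the serine protease of the first complement component, which cleaves C4 and C2. Its brightest probe gave log2 ratios of OXA over control of 1.15, 0.09, 0.78 and 0.41 on arrays 1 to 4. All were above 0, and the pair with OXA in Cy5 (mean 0.96) was higher than the pair with OXA in Cy3 (mean 0.25). The mean was 0.61 (SD 0.46, n = 4), a fold of 1.52, with a standard error of 0.10 in the limma fit. That standard error combines the probe's spread between arrays of the same dye order with a variance estimated over all probes. It leaves out the difference between the dye orders. Both points hold for each standard error given here. C1S ranked at place 14 of the 2407 named genes by the size of its increase.

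The second probe of C1S gave 0.26, 0.29, 0.30 and 0.35 on arrays 1 to 4, with a mean of 0.30 (SD 0.04, n = 4) and a fold of 1.23. This dimmer probe did not split by dye: its mean Cy5 over Cy3 was -0.02. The normalized levels of the brighter probe were 12.85, 13.93, 13.25 and 14.28 in control tissue and 14.00, 14.02, 14.03 and 14.69 in OXA tissue. The OXA levels of arrays 1 to 3 lay close together and the control levels were spread more widely, so the ranges overlapped. In this design 0.249% of the named genes had all OXA levels above all control levels, and none of the 7 genes did. For every value given without an array, here and below, each dye order was averaged first and these averages were then averaged. An array left alone in its dye order thus weighs as much as the pair in the other. Such a value is not the plain mean of the arrays left. C1S ran from 0.52 to 0.70 when any array was left out, and its mean was 0.36 with OXA taken as Cy5 throughout. With median centring in place of loess, which moved the median of all probes from 0.02 to 0.14, C1S was at 0.89.

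C4A encodes complement component C4, the substrate of C1s, whose larger fragment binds covalently to surfaces. Its brightest probe gave 0.48, -0.68, 0.09 and 0.14 on arrays 1 to 4, with a mean of 0.01 (SD 0.49, n = 4). Array 2 alone was below 0. With the dye orders weighted equally, the value was 0.21 without array 2 and -0.20 without array 4. Normalized levels were 14.07, 14.04, 14.01 and 14.75 in control tissue and 14.55, 13.36, 14.10 and 14.89 in OXA tissue. The 3 low control values were nearly equal, and the lowest OXA value lay below all of them. The second probe gave 0.47, -0.72, 0.46 and -0.06, which follows the first on arrays 1 and 2. It had more signal in Cy5 on 4 of 4 arrays (mean Cy5 over Cy3 0.43). The third probe was dim, well above background in 5 of 8 readings and in Cy3 on array 4 alone, and gave 0.32, -0.04, 0.00 and 0.01.

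C3 encodes the central component, whose cleavage starts opsonisation and the terminal pathway. Its brightest probe gave 1.46, -0.76, 0.65 and -0.92 on arrays 1 to 4. The signs followed the dye of the OXA RNA: the mean was 1.06 with OXA in Cy5 and -0.84 with OXA in Cy3. The mean of the 4 arrays was 0.11 (SD 1.15, standard error 0.16, n = 4), a fold of 1.08. As Cy5 over Cy3 the same values ranged from 0.65 to 1.46 with a mean of 0.95 (SD 0.36), a fold of 1.93, which put C3 at place 9 of the 2407 named genes. The raw median signals of this probe were 4849, 3075.5, 4425.5 and 5044 in Cy3 and 28037, 15045, 25107.5 and 24009 in Cy5. Raw Cy5 signals were higher on all 4 arrays for C1S, CFB and CD46 as well, so raw signals alone do not set C3 apart.

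Normalized C3 levels were 12.88, 13.09, 13.00 and 14.03 in control tissue and 14.34, 12.33, 13.66 and 13.11 in OXA tissue. The highest and the lowest of these 8 levels were both OXA values. The 5 probes of C3 had means of OXA over control between -0.11 and 0.17, and 4 of them were above 0. The same 4 probes had more signal in Cy5 on every array. The fifth and dimmest probe gave -0.01, -0.38, 0.04 and -0.08, a smaller split than in the other 4. With the dye orders weighted equally, the brightest probe was at -0.09 without array 1 and at 0.31 without array 3. These are not plain means of the arrays left. With OXA taken as Cy5 throughout C3 stood at 0.95.

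CFB encodes factor B, the protease of the alternative pathway, and has 1 probe on the array. It gave 0.04, -0.15, 0.26 and -0.20 on arrays 1 to 4, with a mean of -0.01 (SD 0.21, standard error 0.07, n = 4). As in C3, the arrays with OXA in Cy5 were above 0 and those with OXA in Cy3 below it. The sizes were smaller, with Cy5 over Cy3 between 0.04 and 0.26 and a mean of 0.16. Normalized levels were 12.94, 11.75, 11.94 and 12.21 in control tissue and 12.97, 11.60, 12.21 and 12.01 in OXA tissue. Array 1 held the highest level of CFB in both tissues, and array 2 the lowest. With median centring CFB stood at 0.37, and without array 1 at 0.05.

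**Figure D2:**
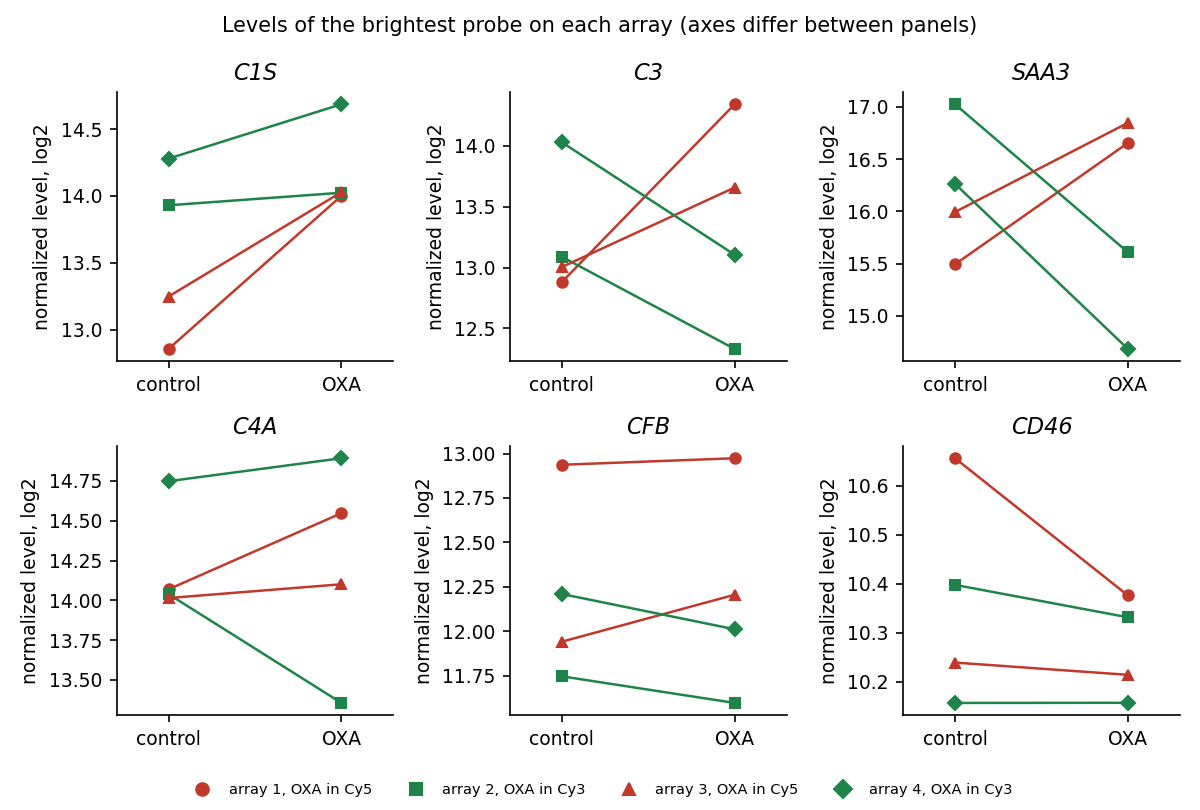
Normalized log2 level of the brightest probe of 6 of the genes in control and OXA tissue, 1 line per array, coloured by the dye of the OXA RNA; each panel has its own axis. The C1S lines of all 4 arrays go up, while in C3 and SAA3 the lines of arrays 1 and 3 go up and those of arrays 2 and 4 go down.

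The inhibitors on the cell surface gave ratios near 0. CD46, a cofactor for the cleavage of C3b and C4b, gave -0.28, -0.07, -0.03 and 0.00 on arrays 1 to 4. Its mean was -0.09 (SD 0.13, standard error 0.07, n = 4), and most of it came from array 1, without which it was -0.03. Normalized levels of CD46 were 10.66, 10.40, 10.24 and 10.16 in control tissue and 10.38, 10.33, 10.21 and 10.16 in OXA tissue. The control level was above the OXA level of the same array on arrays 1 to 3. The mean of CD46 was -0.32 in Agilent's own log ratio and 0.10 with median centring.

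CD59, which blocks the assembly of the membrane attack complex, gave 0.06, -0.06, 0.00 and 0.00 on arrays 1 to 4. Its mean was 0.00 (SD 0.05, standard error 0.05, n = 4). Its probe was well above background in 6 of 8 readings; in Cy3 it was not on arrays 1 and 2. Normexp with an offset of 50 draws ratios of such dim probes toward 0, and in Agilent's own log ratio CD59 was at -0.10. The mean Cy5 over Cy3 was -0.06 for CD46 and 0.03 for CD59.

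SAA3 had the widest split by dye of the 7 genes. Its brightest probe gave log2 ratios of OXA over control of 1.16, -1.42, 0.85 and -1.58 on arrays 1 to 4. The mean was 1.01 with OXA in Cy5 and -1.50 with OXA in Cy3. The mean over all arrays was -0.25 (SD 1.45, standard error 0.08, n = 4), a fold of 0.844. As Cy5 over Cy3 the values ranged from 0.85 to 1.58 with a mean of 1.25 (SD 0.32), a fold of 2.38. Only 5 of the 2407 named genes, 0.208%, reached a mean fold of 2 in that direction: CXCL9 at 1.46, LOC396781 at 1.35, SAA3 at 1.25, DES at 1.08 and CYP24A1 at 1.06. CXCL9, a chemokine induced by interferon gamma, DES, the muscle protein desmin, and LOC396781 were also higher in Cy5 on 4 of 4 arrays, and CYP24A1 on 3 of 4.

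The raw median signals of the brightest SAA3 probe were 30648, 26951, 23029 and 14050 in Cy3 and 156034, 299707, 297897 and 136220 in Cy5. Raw Cy5 signals were nearly equal on arrays 2 and 3, which by the labels of the single samples carried opposite RNAs in Cy5. In Cy3 these arrays were at 26951 and 23029. Raw signals are not normalized between arrays, and the cause was not tested. Normalized levels were 15.49, 17.03, 15.99 and 16.26 in control tissue and 16.66, 15.61, 16.85 and 14.68 in OXA tissue, so the ranges overlapped. Each level from Cy5 was above the level from Cy3 on the same array. All 5 probes of SAA3 had means of OXA over control below 0, from -0.43 to -0.25, and all 5 had more signal in Cy5 on 4 of 4 arrays, with means from 0.89 to 1.25. The brightest probe was at 0.13 with median centring and at 1.25 with OXA taken as Cy5 throughout.

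The probes of SAA3 agreed closely on 3 arrays and less on array 1. Their ratios lay between -1.44 and -1.06 on array 2, between 0.85 and 1.00 on array 3 and between -1.72 and -1.43 on array 4. On array 1 they ran from 0.03 to 1.16, and the 2 dimmest of the 5 probes were lowest there, at 0.03 and 0.21. With the dye orders weighted equally, the brightest probe was at -0.32 without array 1 and at -0.17 without array 3. These are not plain means of the arrays left. In the reference table SAA2 and SAA4 lie near SAA3, and no probe of the array was named for SAA1, SAA2 or SAA4. Whether the SAA3 probes also bind transcripts of those genes was not tested.

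**Figure D3:**
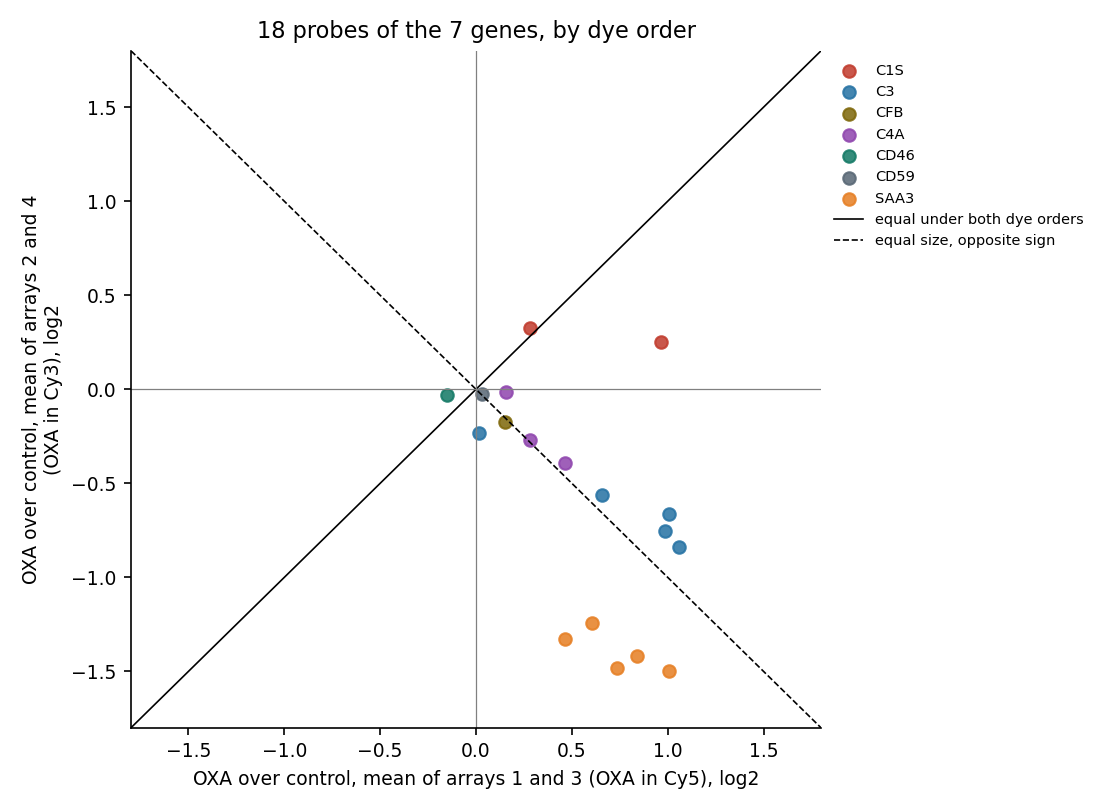
Each of the 18 probes of the 7 genes, with the mean log2 ratio of OXA over control on arrays 1 and 3 (OXA in Cy5) on the horizontal axis and on arrays 2 and 4 (OXA in Cy3) on the vertical axis. The 2 C1S probes lie above 0 on both axes, and the 5 SAA3 probes and 5 C3 probes lie right of 0 and below 0.

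Over the 7 genes, 5 (C3, CFB, C4A, CD59 and SAA3) were above 0 in the mean of arrays 1 and 3 and below 0 in the mean of arrays 2 and 4. By this measure C1S was above 0 in both pairs and CD46 below 0 in both. CD59 split by little, with pair means of 0.03 and -0.03. The share of all named genes that split in this way was not counted, so the split is not read as a trait of these genes. Of the 7 genes, C3 and SAA3 were each nearest to the other over the 4 arrays. The root mean square difference of their ratios was 0.50, against 0.81 between C1S and C3 and 1.25 between C1S and SAA3. Pairs of genes with small ratios lay closer, such as CFB and CD59 at 0.17, since this measure depends on the size of the ratios. The genes with the nearest pattern among the other 2400 named genes were chosen by the smallest such difference. For C3 they were TYROBP at 0.27 and FTH1 at 0.31. TYROBP, a signalling adaptor of myeloid and NK cells, gave 1.02, -0.66, 0.37 and -0.90 on arrays 1 to 4.

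For SAA3 the nearest were FCGR3A at 0.43 and CXCL9 at 0.49. FCGR3A, an Fc receptor of myeloid and NK cells, gave 0.49, -0.95, 0.74 and -1.37. CXCL9 gave 1.47, -1.56, 1.67 and -1.16. For C1S the nearest were TFAP2C at 0.24 and RNASE4 at 0.26, both above 1 on array 1 and slightly below 0 on array 2. For C4A they were CRSP-2 and CYP1A1, both at 0.09. For CFB they were ARV1 at 0.03 and ADGRG1 at 0.05. CD46 (CYP39A1 and AHCYL1) and CD59 (PPP1R10 and DMD) had neighbours within 0.02.

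Markers of the cell types in the tissue were read on the same arrays. In bulk tissue, fewer cells of a type and less RNA per cell cannot be told apart. The 8 measured markers of macrophages and other myeloid cells (of 10 listed) had array medians of 0.43, -0.44, 0.19 and -0.42 and a median Cy5 over Cy3 of 0.26; CD14, at -0.66, and CD86, at -0.08, were below 0 on array 1. Their summed level ranged from 13.79 to 15.20 in control tissue and from 14.00 to 15.05 in OXA tissue. The 8 measured T and NK lymphocyte markers (of 12) had array medians of 0.11, -0.22, 0.19 and -0.17 and a median Cy5 over Cy3 of 0.18, with 1 of them well above background in all readings, and summed levels of 13.15 to 14.31 in control and 13.29 to 14.15 in OXA tissue. The 3 measured stromal fibroblast markers (LUM, DCN and COL1A2, of 9) had array medians of 1.44, 0.02, 0.08 and 0.26; none of the 3 genes was above 0 on every array, with LUM at -0.04 on array 4, DCN at -0.52 on array 3 and COL1A2 at -0.52 on array 2. The stromal medians, like the brightest probe of C1S, were above 0 on every array and highest on array 1. The second C1S probe was also above 0 on every array but lowest on array 1, at 0.26. The median Cy5 over Cy3 of the stromal markers was 0.36. Their summed level was 14.59 to 15.82 in control and 14.52 to 16.28 in OXA tissue.

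The 6 measured epithelial markers (of 11) had array medians of -0.84, -0.34, 0.00 and 0.53 and a median Cy5 over Cy3 of -0.27, with summed levels of 16.20 to 17.52 in control and 16.36 to 16.87 in OXA tissue. The 5 endothelial markers (of 7) had array medians of 0.65, -0.51, -0.06 and -0.41 and a median Cy5 over Cy3 of 0.21, with summed levels of 14.57 to 15.89 in control and 14.98 to 15.45 in OXA tissue. The 3 smooth muscle markers (of 5) had 0.01, -0.96, 0.56 and -0.21 and a median Cy5 over Cy3 of 0.32, with 14.17 to 15.15 in control and 14.00 to 14.75 in OXA tissue. Of 6 conceptus markers 3 were measured, with array medians between -0.05 and 0.11 and summed levels of 12.11 to 12.30 in control and 12.12 to 12.21 in OXA tissue. Of 4 erythrocyte markers none was measured. The array medians of the myeloid, T and NK, smooth muscle and conceptus markers all had the signs of C3 and SAA3 on arrays 1 to 4. Some of these medians were near 0: smooth muscle at 0.01 on array 1, and conceptus at 0.01 on array 3 and -0.01 on array 4. Of all named genes, 13.2% had these signs on the 4 arrays. The part of these cell types in the ratios of the 7 genes was not tested.

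The other genes of complement did not pass the test. Of 46 further complement genes listed, 26 were on the array by name and 19 were measured: 0 of 19 passed an adjusted p of 0.05 in limma and 0 had an unadjusted p under 0.05, against 3.32% of all named genes. Of them 10 were above 0 and 9 below, with a median of 0.00, and 3 were higher in Cy5 on 4 of 4 arrays. Adjusted p-values ran from 0.763 to 0.997. The difference between C1S and these genes was not tested, and C1R, the protease that acts together with C1S, had no probe of that name.

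Among the 7 measured genes of classical and lectin activation, 4 were above 0 and 3 below. For these and the other complement genes, values without an array again weigh the dye orders equally and are not plain means. C2, the other substrate of C1s, gave 0.13, -0.52, 0.66 and -0.42, with a mean of -0.04 (0.10 without array 1, 0.30 with median centring) and more signal in Cy5 on 4 of 4 arrays (mean 0.43). C1QB, a chain of the recognition protein C1q, gave 0.41, -0.30, -0.14 and -0.53, with a mean of -0.14, which was -0.28 without array 1, 0.00 without array 3 and -0.77 in Agilent's own log ratio. MASP2, a protease of the lectin pathway, had the highest mean, 0.08, from a dim probe that was at 0.86 in Agilent's own log ratio and at -0.01 with median centring. No other gene of the alternative pathway was measured. The 3 terminal genes measured had means from 0.03 (C6) to 0.16 (C9); C6, also dim, was at 0.84 in Agilent's own log ratio, and C9 was at 0.01 without array 1.

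Among the other 6 inhibitors measured, 3 were above 0 and 3 below. SERPING1, the inhibitor of C1s and C1r, gave 1.15, -0.40, 0.62 and 0.25, a mean of 0.41 (standard error 0.16, adjusted p = 0.763 in limma), and its 3 probes ranged from -0.05 to 0.41. The mean was 0.24 without array 4 and 0.27 with arrays 2, 3 and 4 only. C4BPA, which binds C4b, gave 0.54, 0.22, 0.06 and -0.10, a mean of 0.18 that was 0.06 without array 1, 0.30 without array 3 and 0.46 with median centring. CD55, a second surface inhibitor, and CLU, which encodes clusterin, each had a mean of -0.07, and VTN, which encodes vitronectin, had the lowest mean at -0.16, which was -0.02 without array 1; without array 2 CD55 was at 0.00 and CLU at 0.06, and with median centring CD55 was at 0.31 and CLU at 0.35. The 3 receptor genes measured were all below 0, from -0.28 for ITGB2, the beta chain of complement receptor 3, to -0.01 for VSIG4, but ITGB2 was at -0.15 without array 1, VSIG4 was at 0.14 with median centring and ITGB2 at 0.18 with OXA taken as Cy5 throughout.

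Of the other acute phase genes, more were below 0 than above. The list was not split by whether a gene's product rises or falls in the acute phase response, so the counts give no direction of that response. Of 52 further genes listed, 34 were on the array by name and 31 were measured; 10 were above 0 and 21 below, where 57.5% of all named genes were below 0. Their median was -0.06, against -0.02 for all named genes, and was -0.014 without array 1, -0.017 without array 2, -0.12 without array 4, 0.02 with median centring and 0.01 with OXA taken as Cy5 throughout. None of the 31 passed an adjusted p of 0.05 in limma (adjusted p = 0.763 for the lowest). With an unadjusted p under 0.05 and a fold of at least 1.2, 3 were lower, APOA1 and IL6 among them, and none higher. By the same rule 1.87% of all named genes were lower and 0.582% higher.

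IL6, the cytokine that drives the acute phase response, gave -0.80, -0.49, -0.30 and -1.01 on arrays 1 to 4. Its mean was -0.65 (standard error 0.14), with its second probe at -0.26. The mean was -0.23 with median centring and 0.10 with OXA taken as Cy5 throughout. APOA1, the main protein of high-density lipoprotein, gave -0.22, -0.36, -0.27 and -0.24, a mean of -0.27 (standard error 0.06). That mean was -0.50 in Agilent's own log ratio, -0.05 with median centring and 0.03 with OXA taken as Cy5 throughout. Both genes were below 0 on 4 of 4 arrays, where SAA3 was below 0 on 2.

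**Figure D4:**
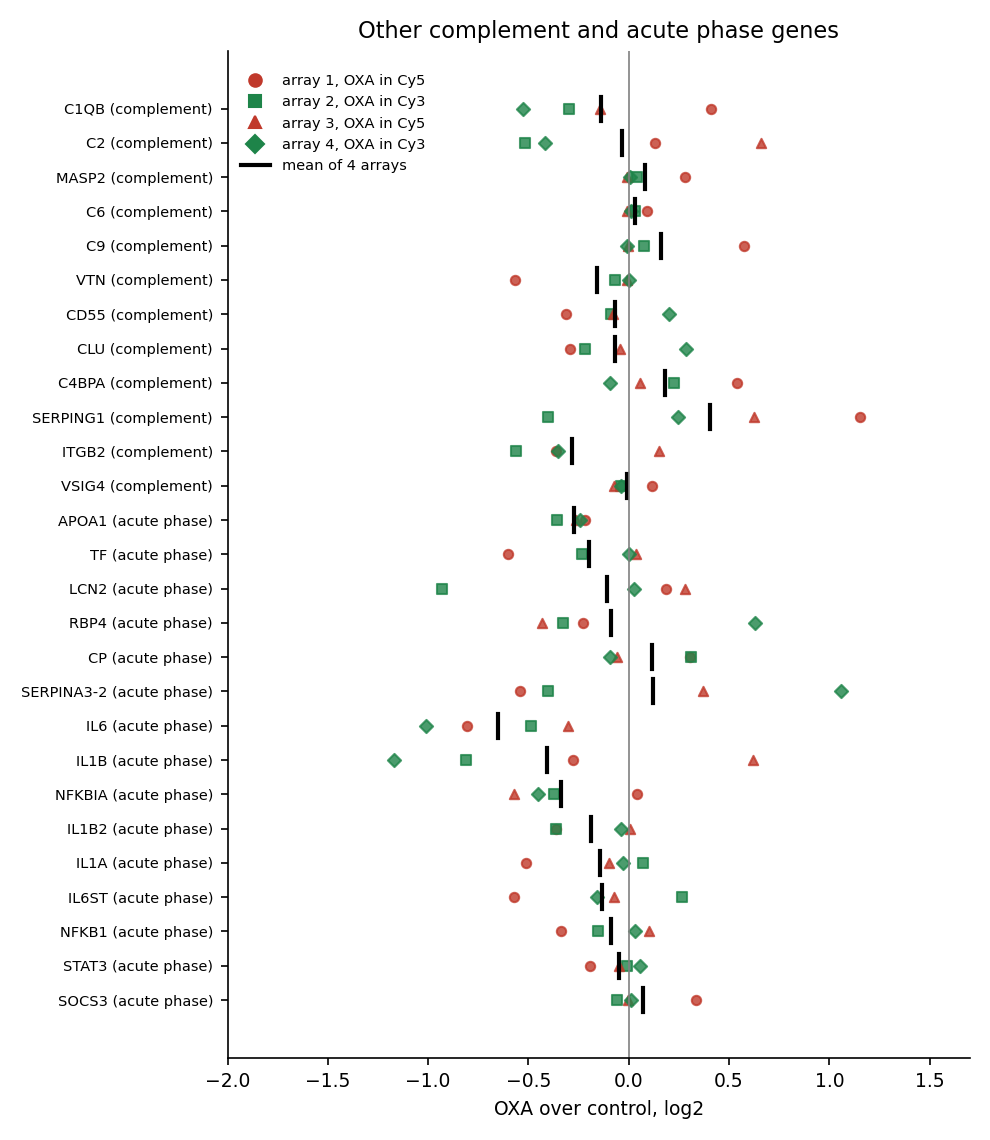
Log2 ratio of OXA over control of named complement and acute phase genes other than the 7, on the 4 arrays, with the mean as a bar; colour gives the dye of the OXA RNA. APOA1 and IL6 lie below 0 on all 4 arrays, and C2 lies above 0 on arrays 1 and 3 and below 0 on arrays 2 and 4.

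Of the 14 cytokine and signalling genes measured, 2 were above 0 and 12 below, with a median of -0.13; IL1A, IL6ST, STAT3, NFKB1 and NFKBIA were above 0 with median centring. IL1B, a cytokine that induces SAA genes, gave -0.28, -0.81, 0.62 and -1.17, a mean of -0.41 (standard error 0.18) with a mean Cy5 over Cy3 of 0.58; the mean of OXA over control was -0.18 without array 1, -0.63 without array 3, -0.93 in Agilent's own log ratio and -0.05 with median centring. NFKBIA, the inhibitor of NF-kappa-B, gave 0.04, -0.37, -0.57 and -0.45, a mean of -0.34. IL1B2, the form of the conceptus, was at -0.19, IL1A at -0.14, IL6ST, the shared receptor chain of IL6, at -0.13, NFKB1 at -0.09 and STAT3 at -0.05. SOCS3, a feedback inhibitor of STAT3 signalling, had the highest mean at 0.07, which was -0.01 without array 1. Without array 1 IL1B2 was at -0.10, IL1A at -0.04, IL6ST at -0.01, NFKB1 at 0.02 and STAT3 at -0.01.

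Of the 17 other plasma protein genes measured, 8 were above 0 and 9 below. Here too, values without an array weigh the dye orders equally and are not plain means. LCN2, which encodes lipocalin 2, gave 0.19, -0.93, 0.28 and 0.03, a mean of -0.11 (standard error 0.18) that was 0.13 without array 2, -0.35 without array 4 and 0.29 with median centring. SERPINA3-2, a protease inhibitor, gave -0.54, -0.40, 0.37 and 1.06, a mean of 0.12 that ran from -0.24 without array 4 to 0.49 without array 2. CP, which encodes ceruloplasmin, gave 0.31, 0.31, -0.06 and -0.10, a mean of 0.12 that was 0.01 without array 2 and 0.50 with median centring. RBP4, the retinol carrier, gave -0.23, -0.33, -0.43 and 0.63, a mean of -0.09 that was 0.15 without array 2 and -0.33 without array 4. TF, which encodes transferrin, gave -0.60, -0.23, 0.04 and 0.00, a mean of -0.20 that was -0.04 without array 1 and 0.06 with median centring.

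In the reference assembly Sscrofa11.1, CFB lies next to C2, and 4 protein-coding genes lie between CFB and C4A. Those 4 genes had means of OXA over control of -0.09 (NELFE), 0.11 (SKIV2L), -0.01 (DXO) and 0.19 (STK19), and of Cy5 over Cy3 of -0.21, 0.25, 0.00 and 0.22. C2 had a mean Cy5 over Cy3 of 0.43, CFB 0.16 and C4A 0.28. C1S lies next to C1R, which no probe was named for. The headers of the files name no genome build, so no coordinates are given.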

How the data were processed

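Per the file headers, the deposited scanner files were written by Agilent Feature Extraction 10.7.3.1 and give a median intensity per spot and per local background in Cy3 and in Cy5. They also hold a deposited log10 ratio of Cy5 over Cy3, background-subtracted and dye-normalized by that software per the file headers. A deposited table for all 4 arrays holds ratios on a log2 scale. Compared with the scanner ratios of 43420 probes, its columns had slopes of 1.06, -1.00, 1.04 and -1.03 on arrays 1 to 4, so its scale is log2 and, under the single samples' labels, OXA stands over control. Its column medians were -0.17, 0.06, -0.06 and 0.09, and how it was centred stays unknown.

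From the median intensities, background was corrected by normexp (offset 50) and each array normalized by loess. Control and outlier spots were left out, and replicate spots averaged. A probe was kept when well above background in at least 4 of 8 readings: 26927 of 43603 probes. The model for the log2 ratios (limma 3.58.1, R 4.3.3) held an OXA and a dye coefficient, with 2 residual degrees of freedom and 3.88 after moderation. P-values were adjusted over all kept probes (Benjamini-Hochberg). Levels per dye also had A-quantile normalization between arrays. The number of arrays, 4, limits the precision.

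Of 7125 probes with a RefSeq accession, 6700 matched the Sscrofa11.1 gene table and named 3029 genes, of which 2407 were measured. A gene stands for its brightest kept probe. The 7 genes, the other lists and the rule for naming were chosen with earlier results of these data known. The text names all 7 genes, listed genes well above background in all readings or at either end of their list, and the 2 nearest patterns per gene; 2 listed genes are counted in their lists but not reported here. The fit was tested on simulated data. Alternatives were the background correction, normalization, deposited ratios, filters, dye coefficient, variance model, slide, dye reading, probe choice and leaving out each array. With an array left out the fit kept its dye coefficient, so both dye orders weighed equally in the value of OXA over control.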

Additional observations from a re-analysis of the deposited data

Results flagged for a closer look

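Of 47 patterns over the 4 arrays (the 18 probes and the other named genes), 3 had 1 array far from the other 3, and chance marks about 1 in 20. Each was array 1 and a dim probe. The dimmest C4A probe was at 0.32 there and between -0.04 and 0.01 on the other arrays. C9, of the terminal pathway, was at 0.57 there and between -0.01 and 0.08 on the others. VTN was at -0.56 there and between -0.07 and 0.00 on the others.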

How the results depend on the processing

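No probe passed an adjusted p of 0.05 under any alternative except without array 4, where 6 did (0 to 6 without 1 array). By the looser rule, an unadjusted p under 0.05 and a fold of 1.2 or more, 349 probes passed (168 higher, 181 lower), and 285 to 3115 without 1 array (3115 without array 3, 2059 without array 4). That count was 1406 with no background correction (816 higher, 590 lower), 1829 in Agilent's log ratio (1260 and 569), 1824 in the authors' deposited value table (1252 and 572), 4297 with median centring (4293 and 4) and 679 with OXA taken as Cy5 throughout (574 and 105). Of the other complement and acute phase genes, 3 passed this rule, 2 to 9 without 1 array (5 without array 2, 9 without array 3), 8 with no background correction and 10 in both Agilent's log ratio and the deposited value table; 0 passed an adjusted p under each. Of the 7 genes, 4 were above 0, and 2 to 4 without 1 array; 2 were without array 1, which is also the result within 1 slide, with no background correction, in Agilent's log ratio and in the deposited value table, and 6 were with median centring and with OXA taken as Cy5 throughout. Several alternatives leave a mean as it is or repeat another one. Counting distinct values, C1S kept its direction in the 9 that moved it (0.36 to 0.89), and the sign changed in 1 of 8 for C3, 4 of 8 for CFB, 4 of 9 for C4A, 1 of 8 for CD46, 2 of 9 for SAA3 and 4 of 6 for CD59. Values that changed direction by more than the spread between arrays were CD59 at -0.10 in Agilent's log ratio and in the deposited value table; with median centring, CFB at 0.37, CD46 at 0.10, CD55 at 0.31, CLU at 0.35, VSIG4 at 0.14, IL1A at 0.21, STAT3 at 0.18, NFKB1 at 0.24, NFKBIA at 0.0054 and the median of the other acute phase genes at 0.021; and, with OXA taken as Cy5 throughout, SAA3 at 1.25, C1QB at 0.27, ITGB2 at 0.18, APOA1 at 0.030, IL6 at 0.10, IL1B at 0.58, IL1B2 at 0.012, NFKBIA at 0.073 and the median of the other acute phase genes at 0.012. The cause was not tested. Among values of the other genes and list medians, 408 stayed within the spread between arrays, 35 moved beyond it and 16 changed direction beyond it. CD59 was left without a value where every reading had to be well above background. No paired analysis was possible because each array already sets 1 OXA RNA against 1 control RNA and there is 1 group of ratios. Dim probes, CD59 and the third C4A probe among them, limit what the ratios can show.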
